A study of Mus musculus with 13 samples.

Results

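The cells described here are mouse colon epithelial cells with several unique molecules (UMI, counts of distinct captured RNA molecules) of 5 S phase genes, Pcna, Mcm5, Mcm6, Tyms and Rrm2. A cell was taken when it had 500 or more detected genes, under 30 counts per 10000 of the goblet cell genes Muc2, Fcgbp and Zg16 together, under 5 UMI of 7 G2/M genes (Mki67, Top2a, Cenpf, Cdk1, Birc5, Ccnb1 and Ube2c) and 4 or more UMI of the 5 S phase genes. The rule found 145 of 4183 cells, and these are called S-gene cells below, since most of them carried the RNA of differentiated colonocytes rather than of crypt cells. Of the 145, 8 came from 768 cells of germ-free mice and 137 from 3415 cells of antibiotic-treated mice.

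The germ-free mice were labelled Germ-free C57BL/6J, and the antibiotic-treated mice were wild type C57BL/6J given an antibiotic treatment that the labels name no further. Per the labels' protocols, colon epithelium was released with EDTA, dissociated with Dispase II and DNase I, pooled by condition and sorted as EPCAM+ CD45- cells, with CD44+ (proliferative) and CD44- (differentiated) cells in equal numbers, before 10x Chromium 3′ library preparation. The labels give neither the number of mice in a pool nor their age. Each condition is thus 1 pool, and no p-value was computed between conditions or cell groups. The germ-free libraries carry the batch label batch2 and the antibiotic libraries batch1, so the effect of condition cannot be told apart from that of batch. Control mice were not analysed here.

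In S phase a cell copies its genome once. Origins of replication are licensed by loading the MCM helicase (Mcm2 to Mcm7), DNA polymerases then extend the new strands on the sliding clamp PCNA, and thymidylate synthase (Tyms) and ribonucleotide reductase (Rrm1, Rrm2) supply the nucleotides. Transcription of many of these genes is raised by E2F factors when a cell passes from G1 into S. In the colon, division is restricted to the crypt, where stem cells marked by Lgr5 and their transit-amplifying daughters lie, while colonocytes further up the crypt and at the surface have left the cycle.

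The genes that define the S-gene cells lie on different chromosomes of the mm10 build: Pcna at chr2:132249162-132253314 on the minus strand, Mcm5 at chr8:75109569-75128439 on the plus strand, Mcm6 at chr1:128331590-128359664 on the minus strand, Tyms at chr5:30058202-30073617 on the minus strand and Rrm2 at chr12:24708241-24714146 on the plus strand. The 250 bases before each RefSeq start (GRCm38.p6) were searched on both strands for 4 forms of the E2F motif, TTTCCCGC, TTTCGCGC, TTTGGCGC and TTTGCCGC, whose copies can overlap on opposite strands. Of the 5 genes, Mcm5 and Mcm6 had a match, and 611 of 32851 mouse promoters did (1.86%). The matched stretches are shown because they belong to the genes that chose the cells, with the motif letters in capitals, for Mcm5 on the plus strand at chr8:75109306-75109417 and for Mcm6 on the minus strand at chr1:128359706-128359865.
Mcm5: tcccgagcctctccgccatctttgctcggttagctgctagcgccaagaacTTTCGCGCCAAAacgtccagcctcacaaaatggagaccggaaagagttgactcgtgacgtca
Mcm6: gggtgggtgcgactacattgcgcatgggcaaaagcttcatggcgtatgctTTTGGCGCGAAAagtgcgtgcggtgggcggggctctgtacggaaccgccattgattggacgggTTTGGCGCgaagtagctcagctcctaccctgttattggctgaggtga
Among the 5 lists of other replication-linked genes used below, 13 of the 99 genes with a promoter in the table had a match (13.1%), among them Mcm7, Pola1 and Hells. None of the 16 colonocyte genes with a promoter did. A match is a description of these letters only.

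Depth differed between the conditions. The median cell had 2874 UMI in the germ-free pool and 6993 UMI in the antibiotic pool. Cell names end in a number, which split the germ-free cells into 2 sets (306 and 462 cells) and the antibiotic cells into 3 (832, 1149 and 1434 cells). The labels do not say what the numbers stand for, so the sets are used below only to show spread within a pool. No barcode was shared between the germ-free sets. In the antibiotic pool 810 barcodes occurred in more than 1 set, and the 837 shallower copies had a median of 93.6% of their UMI also in the deepest copy. No S-gene cell was such a shallower copy, although 77 of the 137 antibiotic S-gene cells had a shallower copy in another set. The doublet caller Scrublet marked 14 germ-free and 8 antibiotic cells, or 0.234% of the antibiotic cells, which is too few to count as a working call there. It marked no S-gene cell.

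S-gene cells made up 1.04% of germ-free cells (95% exact binomial interval 0.451 to 2.04%) and 4.01% of antibiotic cells (3.38 to 4.73%). All 8 germ-free cells were in germ-free set 4, and set 3, with a median of 1045 UMI per cell, had 0 of 306. By the same kind of interval this allows a share of up to 1.20%. The antibiotic sets 1, 2 and 3 held 29, 56 and 52. These intervals cover counting error only. The 3415 antibiotic cells include the 837 shallower copies and hold 2578 distinct barcodes, while the germ-free pool had no such copies. None of the copies was an S-gene cell, so the antibiotic share of distinct barcodes is higher than 4.01%. That share was not computed, and the interval above counts copies as cells. The thinned shares and summed levels below keep the copies too. G2/M cells, those past the same gates with 5 or more UMI of the 7 G2/M genes, were 4.56% of germ-free and 5.24% of antibiotic cells.

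The S-gene cells were deep cells. Their median was 9965 UMI (4840 to 17306) in the germ-free pool and 29161 UMI (3245 to 96367) in the antibiotic pool. A count of 4 molecules was rarely reached in a shallow cell, so the shares above moved with depth. When every cell was thinned to 2000 UMI, leaving out 292 shallower germ-free and 877 shallower antibiotic cells, 1 of the 145 kept 4 or more UMI and 16 kept 2 or more. The rule then found 0 of 476 germ-free and 3 of 2538 antibiotic cells. Cells with 2 or more S gene UMI after thinning were 2.31% of germ-free cells (11 cells, 1.16 to 4.10%) and 1.42% of antibiotic cells (36 cells, 0.995 to 1.96%). Summed over all cells past the gates, the 5 genes stood at 108 counts per 1000000 UMI (CPM; 95% Poisson interval 96.1 to 121) in the germ-free pool and 79.8 CPM (76.9 to 82.9) in the antibiotic pool. The order of the conditions in the share of S-gene cells was therefore the opposite of their order in these summed levels, and no order is read from the share.

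**Figure D1:**
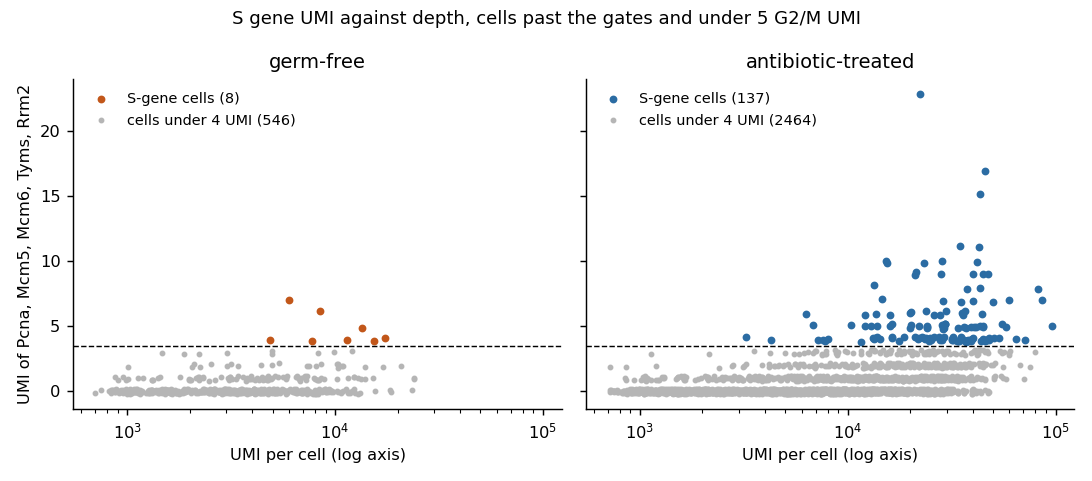
UMI of the 5 S phase genes (vertical axis, each cell moved slightly up or down to show overlap) against UMI per cell (log axis) for cells past the gates with under 5 G2/M UMI, germ-free on the left and antibiotic-treated on the right; the dashed line marks the rule. The 8 germ-free and 137 antibiotic S-gene cells lie at the deep end of each pool.

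At the threshold itself, the 69 cells with 4 UMI (5 germ-free, 64 antibiotic) had a median depth of 28326 UMI and 1.40 S gene UMI per 10000, and the 115 cells just outside it, with 3 UMI (9 germ-free, 106 antibiotic), had 18646 UMI and 1.36 per 10000. Cells on either side of the line thus had like values per 10000 UMI and differed in depth. Of 219 cells with 4 or more S gene UMI, 67 were left out for 5 or more G2/M UMI and 13 by the goblet gate.

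Pcna, the replication clamp, which also serves DNA repair, gave most of the counts by which the cells were chosen. It supplied 483 of the S gene UMI (60.4%) and was seen in 137 of the 145 cells. Tyms gave 155 UMI in 80 cells, the helicase subunits Mcm6 and Mcm5 gave 99 UMI in 41 cells and 38 UMI in 28 cells, and Rrm2 gave 25 UMI in 15 cells. Pcna alone reached 4 UMI in 62 cells. In 42 cells only 1 of the 5 genes was seen, in 62 cells 2, in 30 cells 3, in 10 cells 4 and in 1 cell all 5.

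The RNA of most S-gene cells was not that of crypt cells in S phase, although no cutoff assigned single cells. Summed in each cell, 18 colonocyte genes had a median of 14504 CPM (quartiles 3919 and 35582) in antibiotic S-gene cells. In antibiotic G2/M cells it was 1850 CPM (1081 and 2593). The germ-free medians were 4727 CPM (1419 and 23198) and 1812 CPM (1307 and 2581). The values below are pooled over UMI, so deep cells weigh more. Car1, the colonocyte carbonic anhydrase, stood at 8750 CPM in germ-free and 14954 CPM in antibiotic S-gene cells, and Krt20, a keratin of differentiated epithelium, at 177 and 672 CPM. Lgr5 stood at 177 CPM in the germ-free S-gene cells, where all 15 UMI came from 1 cell, and at 9.39 CPM in the antibiotic ones. The epithelial adhesion gene Epcam stood at 1904 CPM in germ-free and 1898 CPM in antibiotic S-gene cells. Of 8 immune genes, 5 (Ptprc, Cd3e, Cd79a, Lyz2 and Cd8a) had no UMI in any S-gene cell, and of 7 stromal genes, 5 (Col1a1, Col1a2, Col3a1, Dcn and Sparc) had none.

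The S-gene cells ran along a gradient between those states. The 5 lists of other replication-linked genes (origin licensing and helicase, polymerases and fork, nucleotide synthesis, chromatin assembly, repair and checkpoint), 118 genes that the rule did not use, were summed in each cell. In the 16 cells with 5 or more S gene UMI per 10000 they reached 7328 CPM. In the 23 cells at 3 to 5 per 10000 they were at 3187 CPM, in the 28 cells at 2 to 3 at 2346 CPM, in the 60 cells at 1 to 2 at 1524 CPM and in the 18 cells under 1 at 1641 CPM. The 18 colonocyte genes ran the other way, from 4224 CPM in the 16 densest cells to 31980 CPM in the 18 sparsest. Across the 145 cells Spearman's rho between the density of the 5 genes and the replication-linked sum per UMI was 0.32. Between the replication-linked and colonocyte sums per UMI it was -0.76, and between the density of the 5 genes and depth it was -0.83. These correlations describe cells that share a library and whose density and depth are linked by the rule itself.

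**Figure D2:**
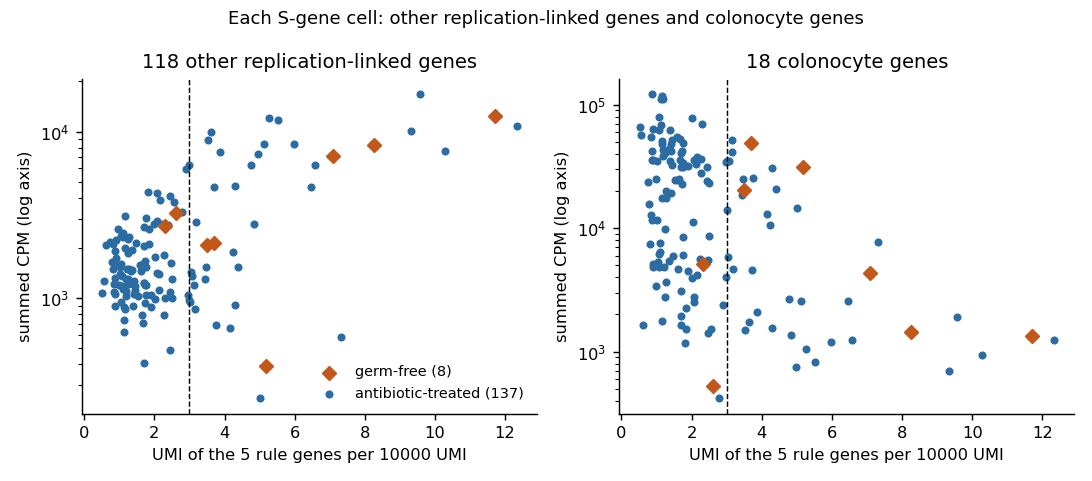
Summed CPM (log axis) of 118 other replication-linked genes on the left and of 18 colonocyte genes on the right against UMI of the 5 rule genes per 10000 UMI, 1 point per S-gene cell, germ-free as orange diamonds and antibiotic-treated as blue circles; the dashed line stands at 3 per 10000. The 16 cells at 5 or more per 10000 averaged 7328 CPM on the left and 4224 CPM on the right, over their pooled UMI.

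To set depth aside, each S-gene cell was given the cell of the same set nearest to it in UMI that was past the gates and neither an S-gene cell, a G2/M cell nor a shallower copy. These depth-matched cells had a median of 29201 UMI in the antibiotic pool, beside 29161 UMI in the S-gene cells. In both conditions together 1502 genes could be tested, none of them an origin, polymerase, nucleotide or repair gene, and 0.266% were at least 2-fold higher in S-gene cells the same way in both (Clca3b, Kcnq1, Gpx2 and Ptma, named after their values were seen). The comparison was therefore read in the antibiotic pool, where a gene counted as different at 2-fold or more on CPM + 1. Of the 10840 genes tested there, 2.82% were higher in S-gene cells by that measure and 1.02% lower. With another scaling, by median-of-ratios size factors, 62.7% of the calls were on the higher side, against 73.4% with CPM.

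Replication-linked genes other than the 5 of the rule were higher in the S-gene cells than in cells of like depth. Of 93 tested, 30 were at least 2-fold higher and 0 lower, with a median log2 ratio of 0.68, beside 0.09 over all genes tested. In 64 of the 93 (68.8%) the S-gene cells were above the depth-matched cells in all 3 antibiotic sets, as were 26.5% of all genes. The same sum stood at 2060, 1946 and 2062 CPM in the S-gene cells of sets 1, 2 and 3, against 1295, 1361 and 1122 CPM in the depth-matched cells. In the germ-free pool it was 3866 CPM in the 8 S-gene cells and 1921 CPM in the 8 depth-matched cells. The 8 goblet genes outside the gate summed to 473 CPM in those S-gene cells and 3580 CPM in those depth-matched cells, beside 586 and 262 CPM in the antibiotic pair, and the part of goblet RNA in these differences was not tested.

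Among the helicase genes, which open the parental strands, Mcm3 had 5.24, 5.06 and 12.2 CPM in the S-gene cells of antibiotic sets 1, 2 and 3, against 1.30, 0.00 and 0.594 CPM in the depth-matched cells. The depth-matched value rested on 2 UMI, and the ratio of 16.7 had a 95% counting interval of 4.27 to 143. Mcm7 had 17.0, 20.2 and 16.9 CPM, against 7.81, 5.22 and 3.56 CPM, a ratio of 3.64 (2.23 to 6.21). The S-gene cells were above in every set for both genes. Mcm2 and Mcm4 were 3.31-fold (1.46 to 8.43) and 2.53-fold (1.26 to 5.42) higher. In all, 8 of 19 origin and helicase genes tested were at least 2-fold higher.

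At the fork, Pola1, the catalytic subunit of the polymerase that primes new strands (chrX:93304767-93632155, minus strand), had 35.4, 34.3 and 39.0 CPM in the S-gene cells, against 5.21, 6.38 and 2.38 CPM in the depth-matched cells. Its ratio of 8.0 (4.95 to 13.7) came from 43 S-gene cells with a UMI and 13 depth-matched cells. Lig1, the ligase that joins Okazaki fragments, had 27.5, 25.3 and 17.5 CPM, against 13, 8.70 and 5.35 CPM, a ratio of 2.77 (1.85 to 4.22). No set overlapped between the groups for Pola1, and the same held for Lig1. The share of all genes without such overlap was not computed, for this or the later comparisons of cell groups. Of 22 polymerase and fork genes tested, 8 were at least 2-fold higher.

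Of the nucleotide genes, Rrm1, the large subunit of ribonucleotide reductase, was 2.24-fold higher over the pool (1.32 to 3.94), but stood at 3.93 CPM in S-gene cells and 6.51 CPM in depth-matched cells of set 1. Tk1, thymidine kinase, was 2.94-fold higher (1.12 to 9.05) on 18 UMI, and Dut, the dUTPase, 2.12-fold (1.41 to 3.25). Together 5 of 21 nucleotide synthesis genes tested were at least 2-fold higher.

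Chromatin genes of replicating cells behaved likewise. Atad2, a chromatin ATPase, had 19.7, 17.4 and 21.0 CPM in S-gene cells, against 1.30, 2.90 and 2.38 CPM in depth-matched cells, a ratio of 8.04 (4.16 to 17.4). Hells, a remodeller needed for DNA methylation, had 24.9, 18 and 21.5 CPM, against 5.21, 6.38 and 2.97 CPM, a ratio of 4.31 (2.63 to 7.40). Uhrf1, which brings the maintenance methylase to new DNA, was 2.83-fold higher (1.29 to 6.87). For Atad2 and Hells no set of one group overlapped a set of the other. Of 19 chromatin assembly genes tested 5 were at least 2-fold higher, and of 12 repair and checkpoint genes 4.

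Of 18 ribosome biogenesis genes 2 were at least 2-fold higher, and 13 were above the depth-matched cells in all 3 sets, with a median log2 ratio of 0.53. Of 13 dissociation response genes 1 was at least 2-fold higher, 7 were above in all 3 sets and 0 below, with a median log2 ratio of 0.34, and the part of that response in the other differences was not tested. Of 6 goblet genes outside the gate 2 were at least 2-fold higher, and of 11 CDK inhibitor and quiescence genes 0 passed in either direction. Of 18 colonocyte genes 1 was at least 2-fold higher and 4 lower, with a median log2 ratio of -0.34, and 11 were below the depth-matched cells in all 3 sets, as were 1305 of all 10840 genes. Histone genes, listed by symbol, with the replication-independent H1f0 among them, had 2 of 22 at least 2-fold higher and a median log2 ratio of 0.01. Outside the lists, Tgm3, a transglutaminase, had 9.17, 48.3 and 76.9 CPM in S-gene cells, against 29.9, 364 and 268 CPM in depth-matched cells, and Ano1, a chloride channel, was 3.79-fold lower in S-gene cells. Nxpe2 was 7.71-fold higher (4.93 to 12.6) on 28 cells with a UMI, against 8 depth-matched cells.

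**Figure D3:**
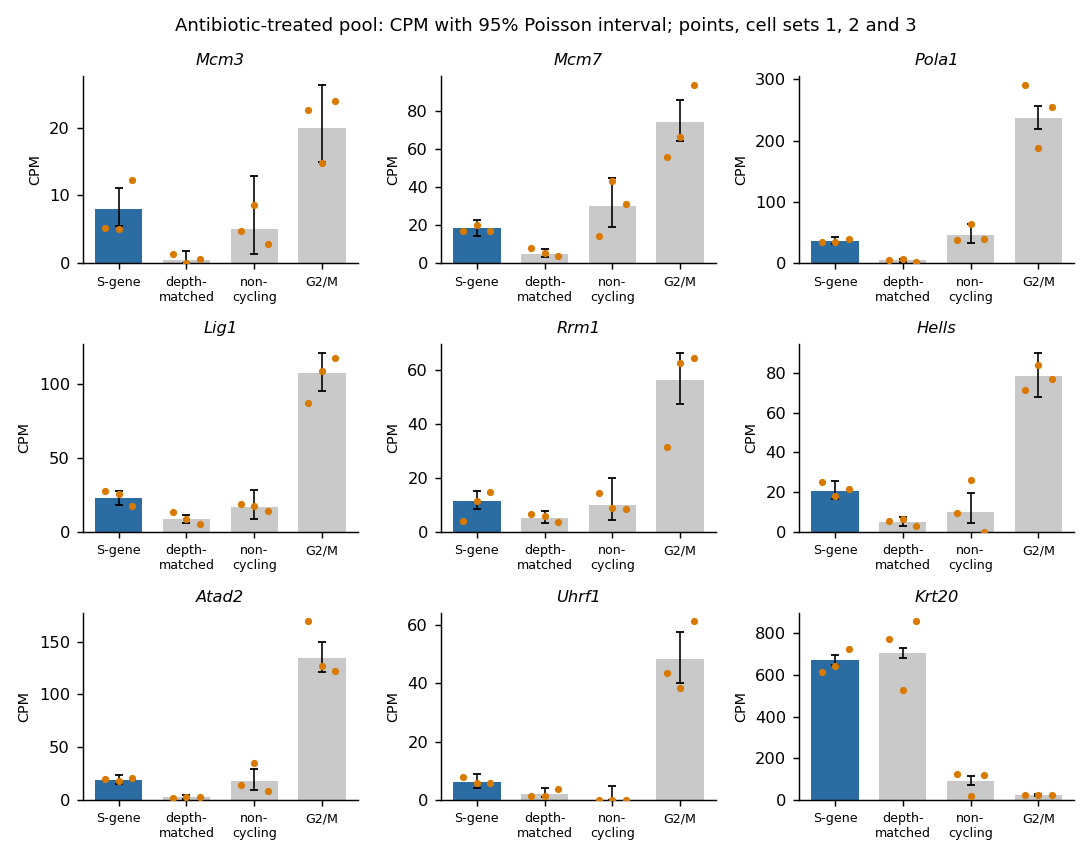
CPM of 8 replication-linked genes and of Krt20 in S-gene, depth-matched, non-cycling crypt and G2/M cells of the antibiotic pool; bars give the pooled value with its 95% Poisson interval and points give cell sets 1, 2 and 3. Pola1 stood at 36.4 CPM in S-gene cells, 4.55 CPM in depth-matched cells and 237 CPM in G2/M cells, while Krt20 stood at 672, 705 and 23.5 CPM in the same groups.

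The excess over depth-matched cells was uneven among the S-gene cells. They were divided, after the values had been seen, at 3 S gene UMI per 10000, which left 33 dense cells (median 13797 UMI) and 104 sparse cells (median 34900 UMI) in the antibiotic pool. The 118 replication-linked genes summed to 4505, 3901 and 4327 CPM in the dense cells of sets 1, 2 and 3, against 921, 1017 and 1224 CPM in their own depth-matched cells. In the sparse cells they summed to 1635, 1618 and 1800 CPM, against 1359, 1420 and 1110 CPM. The dense cells were above their matches in every set and below the G2/M cells, at 6493, 6420 and 6257 CPM, in every set. The sparse cells were above theirs in every set too, by a smaller margin.

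Single genes followed the sum. Pola1 stood at 168 CPM in the dense cells and 9.18 CPM in their depth-matched cells, against 17.0 CPM in the sparse cells and 3.85 CPM in theirs. Hells stood at 91.5 and 3.67 CPM in the dense pair and at 10.2 and 4.96 CPM in the sparse pair. For both genes the dense cells were above the other 3 groups. Lig1 was at 86.1 and 7.34 CPM in the dense pair and at 13.2 and 8.26 CPM in the sparse pair. Uhrf1 was at 33.0 and 5.51 CPM in the dense pair, and in the sparse pair at 2.15 and 1.65 CPM, within each other's counting intervals. The histone variant gene H2afz stood at 139 and 51.4 CPM in the dense pair and at 136 and 98.0 CPM in the sparse pair. The chromatin gene Hmgb2 stood at 154 and 60.6 CPM in the dense pair and at 137 and 89.7 CPM in the sparse pair. Both were above the matches on each side of the split, although their levels in dense and sparse cells were alike.

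Crypt genes were uneven between dense and sparse cells. Over all antibiotic S-gene cells, 1 of 9 stem and Wnt genes tested was at least 2-fold higher than in depth-matched cells and 0 lower. Their median log2 ratio was 0.25. In all 3 sets 3 of the 9 were above and 1 below, Lgr4, at 149 and 205 CPM over the pool. That list leaves out Slc12a2 and Lgr5. Slc12a2, a chloride cotransporter of the lower crypt, stood at 302 CPM in dense cells and 34.9 CPM in their matches, and at 93.2 CPM in sparse cells and 29.2 CPM in theirs. The stem cell receptor Lgr5 stood at 47.6 CPM (26 UMI) and 1.84 CPM (1 UMI) in the dense pair, and at 3.77 CPM (14 UMI) and 0.826 CPM (3 UMI) in the sparse pair. The pooled values of both genes were above those of the matches on each side of the split, although for Lgr5 the counting intervals of the sparse pair overlapped (2.06 to 6.33 and 0.170 to 2.41 CPM). The Lgr5 UMI came from 5 of the 33 dense and 3 of the 104 sparse cells, and the intervals, which take UMI as independent, do not cover the spread between cells. Cd44, whose protein was used in the sort, was not above its matches, at 34.8 and 55.1 CPM in the dense pair and 24.0 and 25.6 CPM in the sparse pair. Npm1, a nucleolar chaperone, stood at 390 and 73.4 CPM in the dense pair and at 258 and 198 CPM in the sparse pair. Cdk4, the kinase of G1, stood at 54.9 and 3.67 CPM in the dense pair and at 23.4 and 16.8 CPM in the sparse pair. The 18 colonocyte genes summed to 12906 CPM in dense cells and 22043 CPM in their matches, against 29592 and 30150 CPM in the sparse pair.

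**Figure D4:**
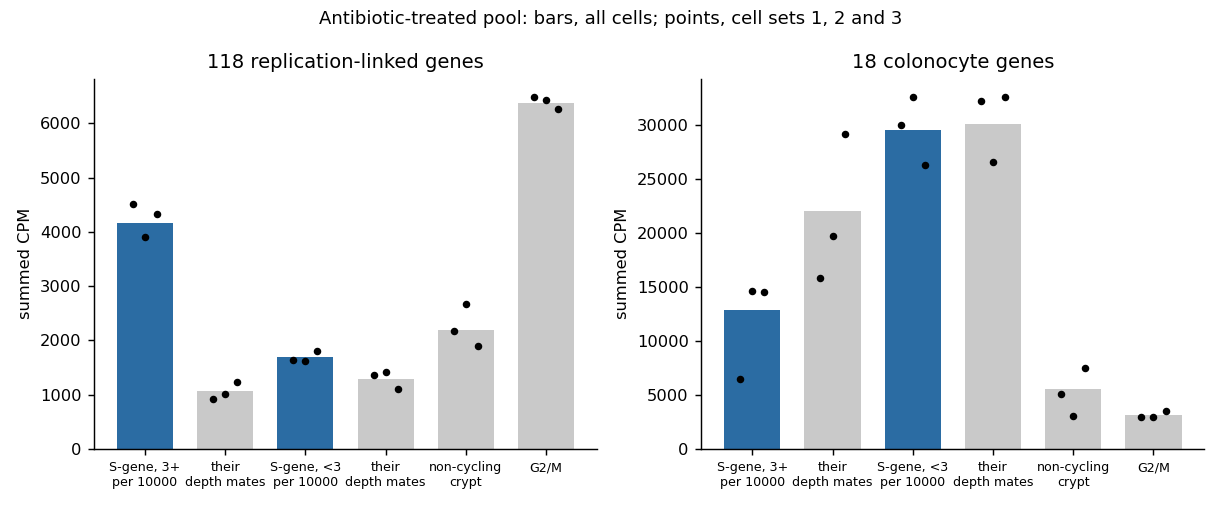
Summed CPM in the antibiotic pool of 118 replication-linked genes on the left and of 18 colonocyte genes on the right, in S-gene cells with 3 or more and with under 3 rule gene UMI per 10000, each beside its depth-matched cells, and in non-cycling crypt and G2/M cells; bars pool all cells and points give sets 1, 2 and 3. The dense S-gene cells reached 4165 CPM of replication-linked genes, against 1065 CPM in their matches, and the sparse ones 1696 CPM, against 1281 CPM.

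Against non-cycling crypt cells, the S-gene cells had more RNA of colonocyte and proximal colon genes. They were also deeper, with medians of 29161 and 7413 UMI in the antibiotic pair and 9965 and 4068 UMI in the germ-free pair. In antibiotic cells past the gates, outside the S-gene and G2/M groups and without shallower copies, the colonocyte sum rose with depth. It was 8060 CPM under 10000 UMI and 28116 CPM at 20000 to 40000 UMI. The part of depth in this comparison was not tested. The non-cycling crypt cells (15 germ-free, 67 antibiotic) had at most 1 S gene UMI, no G2/M UMI and 4 or more UMI of Lgr5, Slc12a2, Axin2, Ascl2 and Smoc2, and a gene was called when it differed by 2-fold or more the same way in both conditions. Of 1374 genes tested, 6.84% were higher and 1.82% lower. The higher side held 79.0% of the calls with CPM and 63.6% when mitochondrial genes were left out of the total. Of 10 colonocyte genes tested 5 were higher and 0 lower, and of 4 genes of the proximal colon 3 were higher. Those 8 were a small share of the 119 calls. Of 10 dissociation response genes 2 were higher and 0 lower, and their part in the other differences was not tested. No origin, polymerase, nucleotide or repair gene had enough UMI in both conditions to be tested.

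Car1 had 8750 CPM in germ-free S-gene cells and 444 CPM in germ-free non-cycling crypt cells, and 14377, 19153 and 10859 CPM in the 3 antibiotic sets of S-gene cells, against 359, 500 and 286 CPM. Guca2a, the guanylin precursor secreted by colonocytes, had 1643 and 242 CPM in the germ-free pair, and 2823, 2709 and 3451 CPM in the antibiotic sets of S-gene cells, against 793, 254 and 1350 CPM. No set overlapped between the groups for either gene. Cyp2c55, a cytochrome P450 listed here with the proximal colon, had 792 CPM in germ-free S-gene cells and 0 UMI in the germ-free non-cycling cells, which makes it at least 19.6-fold higher (floor of 3 UMI over the group). In the antibiotic pool Cyp2c55 had 1957 and 249 CPM. Areg, a growth factor of the EGF family, stood at 473 and 108 CPM in the germ-free pair and at 640 and 90.0 CPM in the antibiotic pair. In the depth-matched cells Car1 stood at 6766 CPM in the germ-free and 12651 CPM in the antibiotic pool. Guca2a stood there at 2554 and 3426 CPM.

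Among genes with 20 UMI in both conditions, 25 were lower in the S-gene cells, beside 94 higher, whereas with a minimum of 1 UMI 641 were lower and 455 higher. Kcnq1, a potassium channel, had 225 and 673 CPM in the germ-free pair and 115 and 331 CPM in the antibiotic pair. Airn, a noncoding RNA, had 142 and 391 CPM in the germ-free pair and 140 and 600 CPM in the antibiotic pair. Esrrg, an orphan nuclear receptor, had 177 and 673 CPM in the germ-free pair and 185 and 490 CPM in the antibiotic pair. Prom1, listed with the stem cell genes, went the other way, with 213 and 40.4 CPM in the germ-free pair and 205 and 86.2 CPM in the antibiotic pair.

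In the antibiotic pool alone 10320 genes could be tested, of which 9.94% were at least 2-fold higher and 16.3% lower in S-gene cells than in non-cycling crypt cells. Of 91 replication-linked genes 7 were higher and 7 lower, with a median log2 ratio of -0.23 beside -0.19 over all genes. Their level over all S-gene cells, 2013 CPM, did not exceed the 2192 CPM of non-cycling crypt cells, whose sets ranged from 1900 to 2663 CPM. Of 9 stem and Wnt genes 8 were lower, among them Lrig1 at 82.2 and 326 CPM, Rnf43 at 45.8 and 171 CPM and Ephb2 at 49.1 and 164 CPM. The reference cells were picked by stem cell genes, so this direction is partly fixed by their choice. Of 11 CDK inhibitor and quiescence genes 5 were higher and 0 lower, among them Gadd45a at 81.5 and 21.2 CPM. In 1 non-cycling antibiotic cell lay 98.7% of the Dclk1 UMI of that group, the marker of tuft cells.

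Compared with G2/M cells (35 germ-free, 179 antibiotic), the S-gene cells had less RNA of mitosis genes and more of colonocyte genes. The G2/M cells were shallower, with medians of 5757 UMI in the germ-free and 10269 UMI in the antibiotic pool, and the part of depth was not tested. They were taken whatever their S gene UMI, and 18 of the 179 antibiotic ones were shallower copies. The 5 rule genes stood at 179 CPM in S-gene and 298 CPM in G2/M cells of the antibiotic pool, and at 449 and 321 CPM in the germ-free pair. Of 3556 genes tested in both conditions, 1.86% were higher and 3.43% lower in S-gene cells by 2-fold or more. The higher side held 35.1% of the calls with CPM and 55.2% when each cell counted equally. All 10 tested mitosis genes were lower, a direction that the rule, which limits 7 G2/M genes, partly fixes. Cenpe, a kinetochore motor, had no UMI in germ-free S-gene cells and 134 CPM in germ-free G2/M cells, at least 3.78-fold lower, and 3.52 and 201 CPM in the antibiotic pair.

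Krt20 had 177 and 16.7 CPM in the germ-free pair, and 613, 646 and 726 CPM in the antibiotic sets of S-gene cells, against 20.9, 24.7 and 23.9 CPM in G2/M cells. Cdkn1a, the CDK inhibitor p21, had 130 and 33.5 CPM in the germ-free pair, and 232, 201 and 312 CPM in the antibiotic sets of S-gene cells, against 36.6, 43.5 and 19.7 CPM. No antibiotic set of S-gene cells overlapped one of G2/M cells for these genes. The chloride exchanger Slc26a3 had 248 and 67.0 CPM in the germ-free pair and 219 and 26.3 CPM in the antibiotic pair. In all 7 of 10 colonocyte genes were higher and 0 lower.

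On the other side, Hmgb2, a chromatin protein of dividing cells, had 260 and 710 CPM in the germ-free pair and 139 and 650 CPM in the antibiotic pair. Nop58, a nucleolar protein of ribosome assembly, had 82.8 and 191 CPM in the germ-free pair and 63.6 and 139 CPM in the antibiotic pair, and 4 of 10 ribosome biogenesis genes were lower. Ephb2, a receptor graded along the crypt, had 59.1 and 134 CPM in the germ-free pair and 49.1 and 165 CPM in the antibiotic pair. In the antibiotic pool alone, where 7.93% of 11076 genes were higher and 17.9% lower, 88 of 118 replication-linked genes were lower and 1 higher. In both conditions together far fewer could be tested, and 0 of 2 origin, 0 of 6 polymerase, 1 of 8 nucleotide synthesis and 2 of 11 chromatin assembly genes were lower. The dense S-gene cells of the antibiotic pool stood at 91.5 CPM for Hells, against 78.5 CPM in G2/M cells, within each other's counting intervals. The replication-linked list includes S phase genes such as Pola1, at 36.4 and 237 CPM, Brca1, at 3.05 and 65.5 CPM, and Pclaf, a PCNA-binding factor, at 4.23 and 108 CPM. Histone genes, listed by symbol, were lower in 48 of 52.

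Against all other cells past the gates, which include the G2/M cells, few genes passed in both conditions. Those cells were shallower, with medians of 3487 UMI in the germ-free and 8104 UMI in the antibiotic pool, and the part of depth was not tested. Of the 2643 in the antibiotic pool, 502 were shallower copies. Of 8914 tested, 0.606% were higher and 0.774% lower by 2-fold or more, and the split turned with scaling, from 43.9% of calls on the higher side with CPM to 9.47% with median-of-ratios size factors, 16.2% without mitochondrial genes and 66.7% with each cell counted equally. Median-of-ratios scaling moved the median log2 ratio of all genes to -0.13, beside 0.04 with CPM. Of the replication-linked lists no gene was called.

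Car1 had 8750 and 3748 CPM in the germ-free pair and 14954 and 6757 CPM in the antibiotic pair. Cdk4 had 70.9 CPM (6 UMI) and 23.6 CPM in the germ-free pair and 27.5 and 12.3 CPM in the antibiotic pair, and Gpx2, a glutathione peroxidase of crypts, had 307 and 123 CPM and 197 and 87.0 CPM. Tgm3 had no UMI in germ-free S-gene cells and 228 CPM in the other germ-free cells, at least 6.44-fold lower, and 52.8 and 192 CPM in the antibiotic pair. Ano1 likewise had no UMI and 160 CPM, at least 4.52-fold lower, and 37.8 and 148 CPM.

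The 8 germ-free S-gene cells can be described one by one. The densest, with 7 S gene UMI among 5975, had 12385 CPM of replication-linked genes and 1339 CPM of colonocyte genes, and the next, with 4 among 4840, had 8264 and 1446 CPM. A cell with 6 UMI among 8470 had 7084 and 4368 CPM. Those 3 cells had high replication and low colonocyte sums. The next 3, with 4 to 5 UMI among 7708, 13490 and 11459, had 389, 2150 and 2094 CPM of replication-linked genes and 31266, 48777 and 20508 CPM of colonocyte genes. Of the 2 sparsest, a cell with 4 UMI among 15328 had 3262 CPM of replication-linked genes, 522 CPM of colonocyte genes and all 15 Lgr5 UMI, and a cell with 4 UMI among 17306 had 2716 and 5085 CPM. Any germ-free value of these 8 cells, with 84576 UMI in all beside 4259810 UMI in the antibiotic S-gene cells, can rest on 1 cell.

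Set against the antibiotic S-gene cells, the germ-free ones had more of the replication-linked lists and less of the colonocyte list. Of 7305 genes tested (20 or more UMI together and 20 CPM or more in the higher condition), 19.2% were higher in the germ-free pool by 2-fold or more and 13.8% lower, so a 2-fold difference is common between these groups. The median log2 ratio over all genes was 0.18 with CPM and -0.14 with median-of-ratios size factors, under which 34.6% of calls were on the higher side instead of 58.2%. At a minimum of 100 UMI, 5702 genes were tested, of which 554 were higher and 930 lower. At 20 UMI, 1201 of the tested genes stood under 20 CPM in antibiotic cells and so passed only by their germ-free level, among them 30 of 63 replication-linked genes. Condition, batch, depth and the mix of dense and sparse cells differ together here and cannot be told apart.

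The lists were therefore summed with no filter on genes. Nucleotide synthesis genes summed to 851 CPM in germ-free S-gene cells, against 358, 423 and 445 CPM in the antibiotic sets, and chromatin assembly genes to 1431 CPM, against 851, 722 and 780 CPM. Origin and helicase genes summed to 461 CPM, against 284, 249 and 258 CPM, and polymerase and fork genes to 662 CPM, against 421, 391 and 395 CPM. Each sum was above every antibiotic set, where the germ-free value came from set 4 alone. At 100 UMI, 9 of 28 replication-linked genes were at least 2-fold higher and 2 lower, beside 554 higher and 930 lower of all 5702 genes tested. Among single genes, Pclaf and Dnajc9 are examples that passed only by their germ-free level. Pclaf had 70.9 CPM (6 UMI) in germ-free cells, against 1.31, 4.50 and 5.24 CPM in the antibiotic sets, and Dnajc9, a histone chaperone, 70.9 CPM (6 UMI), against 2.62, 7.31 and 8.73 CPM. Both stood above every antibiotic set. Pola1 had 94.6 CPM (8 UMI), against 35.4, 34.3 and 39.0 CPM, a ratio of 2.60 (1.10 to 5.25). Impdh2, a rate-limiting enzyme of guanine nucleotide synthesis, had 130 CPM, against 36.7, 41.0 and 38.4 CPM. Npm1 had 769 CPM, against 318, 294 and 236 CPM.

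The mix of cells differed between the pools as well. Dense cells were 6 of the 8 germ-free and 33 of the 137 antibiotic S-gene cells, and among dense cells alone the replication-linked sum was 4428 CPM in germ-free and 4165 CPM in antibiotic cells. Among the cells at 2 to 3 per 10000 it was 2972 CPM in the 2 germ-free and 2315 CPM in the 26 antibiotic cells. With dense cells only, Pola1 was lower in the germ-free pool, at -0.80 on the log2 scale, and Impdh2 at -0.23. In G2/M cells 5.51% of 7623 genes were higher and 9.24% lower in the germ-free pool, and in non-cycling crypt cells 5.87% and 22% of 6308. In G2/M cells the replication-linked sum was 5404 CPM in the germ-free and 6375 CPM in the antibiotic pool, and in non-cycling crypt cells 2882 and 2192 CPM. The difference between the cell groups was not tested, and the groups share their pools.

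Of 17 colonocyte genes tested 8 were at least 2-fold lower in germ-free S-gene cells and 0 higher, with a median log2 ratio of -0.88. Summed, the colonocyte list stood at 15158 CPM in germ-free and 27453 CPM in antibiotic S-gene cells, but among dense cells at 22833 and 12906 CPM, the other way round. Sprr1a, a cornified envelope protein, had no UMI in germ-free cells and 119, 224 and 68.1 CPM in the antibiotic sets, at least 4.02-fold lower. Selenop, the selenium carrier, and Aqp4, a water channel, had none either, against 145 and 124 CPM in the antibiotic pool, at least 4.09-fold and 3.49-fold lower. All 3 genes were seen in each antibiotic set. Among proximal colon genes, 5 of 9 were lower and 0 higher, with Cyp2c55 at 792 CPM in germ-free cells, against 3405, 1746 and 1533 CPM, and Mettl7b at 130 CPM, against 474, 417 and 365 CPM. The proximal median was -1.30, or -0.63 with genes at 0 UMI set to their bound.

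Btg1, an antiproliferative gene expressed in resting cells, had 106 CPM in germ-free S-gene cells, against 492, 473 and 512 CPM in the antibiotic sets. Jund, a gene that also responds to dissociation, had 248 CPM, against 769, 758 and 832 CPM. Both were below every antibiotic set, as were 1002 of the 1006 genes called lower at 20 UMI. Of 13 dissociation response genes 5 were at least 2-fold lower and 0 higher. In G2/M and non-cycling crypt cells that list had median log2 ratios of -0.94 and -1.12, beside -0.65 in S-gene cells, and its part in the other differences was not tested. Slc37a2, listed with the distal colon, had 106 CPM (9 UMI) in germ-free cells, against 0.00, 7.87 and 4.08 CPM, and Vav3, a guanine exchange factor, 236 CPM (20 UMI), against 11.8, 19.1 and 15.7 CPM. Slc37a2 and Vav3 stood under 20 CPM in the antibiotic cells and so passed only by their germ-free level.

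**Figure D5:**
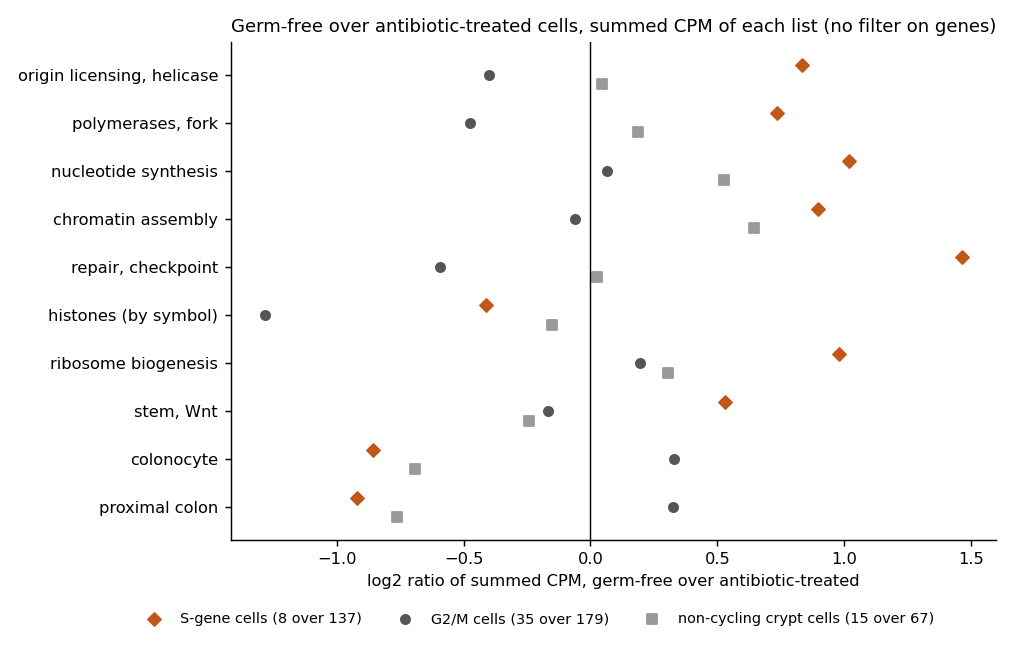
Log2 ratio of the summed CPM of each list, germ-free over antibiotic-treated, with no filter on genes, in S-gene cells (orange diamonds), G2/M cells (dark circles) and non-cycling crypt cells (grey squares). Nucleotide synthesis genes stood at 1.02 in S-gene cells and 0.06 in G2/M cells, and colonocyte genes at -0.86 in S-gene cells and 0.33 in G2/M cells.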

How the data were processed

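The authors deposited natural log values of counts per 10000, 1 per gene and cell (32285 genes, 4183 cells). Exponentials minus 1 sum to 10000 in every cell, and division by a cell's smallest nonzero value gave whole numbers within 0.01 for 100% of nonzero values, taken as UMI counts. The submitters' processing notes list Cell Ranger 7.0.0, kallisto, bustools and mm10, with no roles. Cell filters and use of strand are not given there. UMI were summed per cell group, condition and cell set, and expressed as CPM. Fold changes are ratios of CPM + 1, ratios with intervals are of CPM. Genes needed 20 UMI over both groups in each condition (antibiotic alone: in the antibiotic pool), and the 20 genes of the selection rules were left out of the calls. Ratios carry exact conditional binomial intervals, levels Poisson intervals and shares Clopper-Pearson intervals, all at 95%. Named genes came from the 12 most changed in each direction and the 4 of highest CPM in each list. In the depth-matched, antibiotic-only and dense comparisons they were named after their values were seen. The members and lists were chosen with earlier results of these data known. The depth-matched, antibiotic-only and dense comparisons and the list sums between conditions were added after seeing the data. Gene positions are from the GENCODE mm10 annotation (31424 symbols matched) and promoters from RefSeq (GRCm38.p6). The calls in both conditions and between conditions were tested on simulated sums with known changes and no spread between cells. The antibiotic-only calls, the thinning and the dense split were not tested this way. Python 3.11.15, NumPy 2.4.6, SciPy 1.17.1, pandas 2.3.3, Scanpy 1.11.5 and matplotlib 3.10.9 were used. The 8 barcode libraries among the 13 were not used.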

Additional observations from a re-analysis of the deposited data

Results flagged for a closer look

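Spink4, a small peptide of goblet cells, stood in opposite directions in the 2 conditions. Against G2/M cells its log2 ratio was -2.56 in germ-free S-gene cells and 1.57 in antibiotic S-gene cells, and against the other cells past the gates it was -1.76 in germ-free and 1.05 in antibiotic S-gene cells. Against depth-matched cells it was -5.08 in germ-free S-gene cells (47.3 CPM, against 1635 CPM in the depth-matched cells) and 2.97 in antibiotic S-gene cells. Reg4, a lectin of secretory cells, likewise had -8.87 in germ-free S-gene cells, where it had no UMI, against 465 CPM in the depth-matched cells (at least 13.1-fold lower), and 2.32 in antibiotic S-gene cells. The difference between the conditions was not tested. The germ-free Spink4 values rested on 4 UMI. In antibiotic set 3 Spink4 had 27.9 CPM in S-gene cells, 102 CPM in G2/M cells and 29.1 CPM in depth-matched cells, and Reg4 had 2.91 and 5.94 CPM in S-gene and depth-matched cells, so the antibiotic direction did not hold in every set.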

How the results depend on the processing

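No paired analysis was possible because each condition is 1 pool and the cell sets carry no number that the labels pair between conditions. The number of S-gene cells was 260, 76 and 43 with 3, 5 and 6 or more S gene UMI (germ-free 17, 3 and 2, antibiotic 243, 73 and 41), 3 after thinning to 2000 UMI (germ-free 0, antibiotic 3) and 39 at 3 or more per 10000 (antibiotic 33). Leaving out 1 cell set gave 89 to 145 (antibiotic 81 to 108; 89 without antibiotic set 2, 93 without set 3), and without germ-free set 4 there was no germ-free cell and so no value.

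Genes called against non-cycling crypt cells were 119, against 186 with each cell counted equally, 1096 at 1 UMI, 17 at 100 UMI, 52 at 6 or more S gene UMI, 40 after thinning and 42 in dense cells. Against G2/M cells they were 188, against 1316 (1 UMI), 23 (100 UMI), 44 (thinned) and 124 (dense). Against the other cells they were 123, against 225 (cells equal), 300 (1 UMI), 58 (100 UMI), 53 (pseudocount 10), 377 (6 or more), 327 (thinned) and 370 (dense). Against depth-matched antibiotic cells they were 417, against 762 (cells equal), 723 (1 UMI), 128 (100 UMI), 52 (pseudocount 10), 798 (6 or more) and 1227 (dense). Germ-free against antibiotic, 2406 became 1484 at 100 UMI, 1560 with pseudocount 10, 4536 at 6 or more and 944 thinned. Without 1 set these counts ran over 112 to 131, 166 to 229, 117 to 163, 344 to 565 and 2211 to 2406.

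The colonocyte median (mean of both conditions) against non-cycling cells was 1.78, with 0.45 at 6 or more and 2.63 thinned; against G2/M cells it was 2.30, with 0.64 at 6 or more, and the mitosis median of -4.25 became -3.00 with pseudocount 10. The replication median against depth-matched cells was 0.68, with 1.12 (cells equal), 0.40 (pseudocount 10), 0.97 (thinned), 1.61 (dense) and 0.49 to 0.75 without 1 set. The germ-free over antibiotic colonocyte median was -0.88, with -1.21 (median-of-ratios), -5.25 (6 or more), -0.67 (dense) and -1.04 to -0.88 without 1 set.

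Reversals of single genes came under 3 settings. At 6 or more S gene UMI, which leaves 2 germ-free cells, log2 ratios turned to -1.75 for Emp1 and -3.39 for Sycn against non-cycling cells, to -1.01 for Emp1, -0.74 for Pmp22 and -2.04 for Slc26a3 against G2/M cells, to -1.34 for Depp1, -0.36 for Cd177, -1.36 for Ccn1 and -0.50 for Car1 against the other cells, to -4.85 for Ramp1 against depth-matched cells, and, germ-free over antibiotic, to -2.79 for Slc37a2, -3.98 for Vav3, -0.90 for Ncl and -0.0038 for Impdh2. After thinning they turned to -0.90 for Cdkn1a (G2/M), -0.71 for Cd177 (other cells) and -0.22 for Cdk6 and Pola1 (germ-free over antibiotic). In dense cells they turned to -0.85 for Sycn, -0.34 for Cd177, -0.0029 for Ramp1 and 0.48 for Slc34a2, and, germ-free over antibiotic, to -0.45 for Ncl, -0.23 for Impdh2, -2.40 for Cdk6 and -0.80 for Pola1. The cause was not tested. Leaving out shallower copies or cells marked by Scrublet changed none of the counts above by more than 1.5 times.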
